A study of Homo sapiens with 8 samples.

Results

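The 10 genes described here are 4 transcription factors that set lung and endodermal identity (NKX2-1, FOXA1, FOXA2 and HNF4A) and 6 genes of the surfactant system (SFTPB, SFTPC, SFTPD, NAPSA, ABCA3 and LPCAT1). They were chosen by symbol, matched to the Ensembl identifiers of the count tables, and make up 10 of 60291 gene identifiers. All of the RNA came from A549, an established human lung adenocarcinoma cell line that carries a loss-of-function mutation in KEAP1. All groups share this mutation, controls included; it is known to stabilise NRF2, the protein encoded by NFE2L2, in untreated A549 cells, and protein was not measured here. NFE2L2 siRNA was transfected with 3 different duplexes, 1 library each; control siRNA with 2 non-targeting duplexes, each in 2 transfections, giving 4 libraries; and 1 mock transfection received Lipofectamine without siRNA. Each siRNA transfection used 5 nmol of duplex on 250000 cells, and total RNA was collected after 48 h. As limits of the model, there is a single cell line, which the study did not authenticate or test for mycoplasma, each NFE2L2 duplex was sequenced once, and the mock arm has no replicate.

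NKX2-1 is the homeodomain factor that specifies the lung epithelium and switches on surfactant genes in alveolar type II cells. FOXA1 and FOXA2 are forkhead pioneer factors that open chromatin in the epithelium of the foregut and its derivatives, and FOXA proteins act together with NKX2-1 at surfactant promoters. HNF4A is a nuclear receptor of liver, intestine and stomach-like epithelium, and is found in lung adenocarcinomas that have lost NKX2-1. Surfactant is a film of phospholipid and protein that keeps alveoli from collapsing. SFTPB and SFTPC encode its small hydrophobic proteins and SFTPD a collectin that binds microbes, while NAPSA encodes the protease napsin A that processes pro-SP-B. ABCA3 pumps phospholipid into the lamellar bodies in which surfactant is stored, and LPCAT1 remodels phosphatidylcholine into the dipalmitoyl form.

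Reads counted on genes ranged from 35525141 to 41645410 per library over the 8 libraries, which was 60.3% to 65.6% of all entries in each table. Levels are given as normalised CPM, that is, the reads of a gene scaled to the gene reads of its library (CPM) with TMM factors, and 3 reads in a library correspond to 0.0720 to 0.0844 CPM before that scaling. NFE2L2 itself had 1178, 2044 and 1262 reads with its siRNAs and 3974 to 4227 reads in the control siRNA libraries, a log2 fold change of -1.55 (SE 0.178, adjusted p = 0.000995 by the quasi-likelihood test of edgeR). Duplex 2 therefore left the most NFE2L2 RNA. In these bulk libraries, a change in the level per cell cannot be told apart from a change in the share of cells that express a gene.

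RNA of the defining lung factor and of the hydrophobic surfactant proteins was at or near 0 in these lung-derived cells. The epithelial keratins KRT8 and KRT18 were abundant. NKX2-1, SFTPB and SFTPC had fewer than 10 reads in each of the 8 libraries and were counted as not expressed. SFTPD was present in traces, and the other 6 genes were clearly detected in all libraries. The control mean was 4281 normalised CPM for KRT8 and 3456 for KRT18, the 2 of 6 epithelial markers with the highest level per length. Of 6 markers of leukocytes, endothelium and fibroblasts that were found, 5 stayed under 10 reads in every library. COL3A1 was the exception, and the summed level of the 6 markers was 1.33 to 1.93 normalised CPM after control siRNA, 2.43 to 3.76 with NFE2L2 siRNA and 2.08 in the mock library. PTPRC, COL1A2 and DCN each had 0 reads in at least 1 library, and the part of these markers in the other results was not tested.

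NKX2-1 (ENSG00000136352.13) is a minus-strand gene of chromosome 14 from 36985597 to 36990354 in GRCh37. It had 1, 0 and 3 reads after NFE2L2 siRNA, 0, 0, 1 and 0 reads after control siRNA and 0 reads in the mock library. These 5 reads in all correspond to 0.0164 CPM over the 8 libraries, with an exact 95% Poisson interval of 0.00532 to 0.0383 that covers counting error only. The groups overlapped, and with so few reads NKX2-1 did not enter the main test. Its antisense transcript NKX2-1-AS1 had 1 read in the mock library, 1 in control siRNA library 4 and 0 elsewhere.

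The promoter of NKX2-1 is printed because it holds letters of a forkhead motif, FOXA1 and FOXA2 RNA was present, and NKX2-1 had almost no reads. The window runs from 250 bases before to 50 bases after a RefSeq start, chr14:36519507-36519806 in GRCh38.p14 on the minus strand, written 5′ to 3′ along the gene. Capitals mark the letters CAAGTG (an NKX2 motif, beginning at -147 from the start) and TGTTTAC (a forkhead motif, beginning at -130), each searched on both strands.
NKX2-1: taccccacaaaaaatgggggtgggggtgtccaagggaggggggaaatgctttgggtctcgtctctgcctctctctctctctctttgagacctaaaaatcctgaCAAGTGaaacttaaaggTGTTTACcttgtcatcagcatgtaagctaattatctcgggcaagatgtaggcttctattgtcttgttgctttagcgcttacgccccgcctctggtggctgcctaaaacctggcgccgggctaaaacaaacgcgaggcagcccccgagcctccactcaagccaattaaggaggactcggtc
TGTTTAC was found in 3.42% of all 35116 RefSeq promoter windows and CAAGTG in 11.5%. RefSeq windows were used for 8 of the 10 genes (12 windows, as 4 genes have 2 each). FOXA2 had no window in the reference, and SFTPC was left out of the search. Among these 12 windows TGTTTAC was found in this 1 alone, while CAAGTG was also found in 1 window each of FOXA1 and NAPSA. The 2 motifs do not overlap in the printed window. A match is a run of letters and not a measured binding site.

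FOXA1 and FOXA2 RNA was present in all 8 libraries, and neither gene passed the test. FOXA1 (ENSG00000129514.4, chromosome 14 from 38058757 to 38065264, minus strand) stood at 11.6, 15.3 and 11.9 normalised CPM with NFE2L2 siRNA, at 14.6, 12.6, 11.8 and 10.8 after control siRNA and at 10.5 in the mock library. The highest value came from NFE2L2 siRNA duplex 2, and the groups overlapped. Its log2 fold change was 0.053 (SE 0.144, 95% interval -0.27 to 0.37, adjusted p = 0.855), and its sign turned when certain libraries were left out. FOXA2 (ENSG00000125798.10, chromosome 20 from 22561636 to 22566093, minus strand) stood at 20.5, 25.2 and 19.5 normalised CPM with NFE2L2 siRNA and at 23.6, 20.8, 20.3 and 21.8 after control siRNA, with 21.2 in the mock library. These groups overlapped as well. The log2 fold change of FOXA2 was 0.0071 (SE 0.119, 95% interval -0.26 to 0.27, adjusted p = 0.980), with a sign that also turned. LINC00261, the lncRNA gene next to FOXA2, had 39, 73 and 71 reads after NFE2L2 siRNA and 29 to 53 after control siRNA, and its log2 fold change of 0.40 (SE 0.261) had an adjusted p of 0.371.

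**Figure D1:**
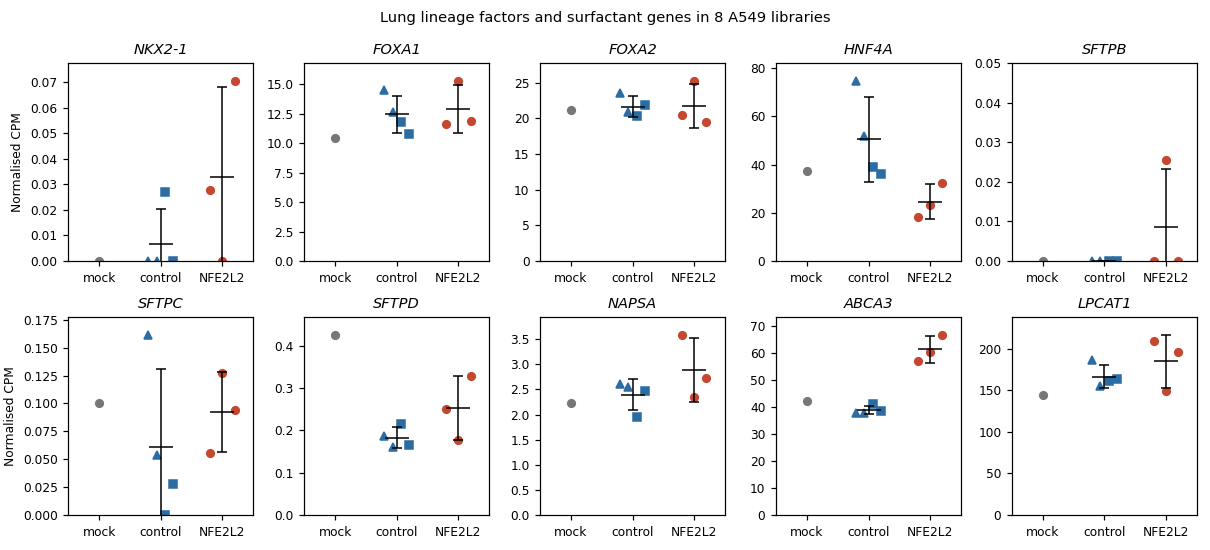
Normalised CPM (vertical axis, from 0, a different range for each gene) of the 10 genes in the mock (grey), control siRNA (blue; triangles duplex 1, squares duplex 2) and NFE2L2 siRNA (red, duplexes 1 to 3 from left to right) libraries. Each point is 1 library and black bars are the mean ± SD, cut at 0. ABCA3 lies above, and HNF4A below, every control siRNA library with NFE2L2 siRNA, while NKX2-1, SFTPB and SFTPC stay near 0.

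HNF4A did not pass between the siRNA groups in edgeR, although its normalised levels did not overlap, and it differed between the control duplexes. HNF4A (ENSG00000101076.12) is a plus-strand gene of chromosome 20, from 42984339 to 43061485. It had 646, 913 and 1378 reads, or 18.1, 23.2 and 32.4 normalised CPM, with NFE2L2 siRNA duplexes 1 to 3. With control siRNA it had 2778, 1932, 1450 and 1303 reads, or 74.6, 52.0, 39.2 and 36.1 normalised CPM, and in the mock library 1487 reads, or 37.2. After normalisation the 3 NFE2L2 siRNA libraries were all lower than the 4 controls, but the gap between NFE2L2 siRNA duplex 3 and control library 4 was small, and the raw reads of these 2 libraries stood in the opposite order. The mean was 24.6 ± 7.26 normalised CPM (SD, n = 3) against 50.5 ± 17.5 (SD, n = 4). The log2 fold change was -1.04 (SE 0.271, 95% interval -1.64 to -0.43), with an adjusted p of 0.0456 in edgeR, and so did not pass the threshold of 0.01 that the study used. With DESeq2, the tool of the study, in place of edgeR the log2 fold change was -1.04 and the adjusted p 0.00203, and 7.7% of all genes passed. The exact two-sided permutation test over the 35 divisions of the 7 libraries gave p = 0.0571, which is the smallest value it can give. It follows from the lack of overlap, which held for 23.3% of all tested genes.

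The controls of HNF4A did not form a single level. The duplex 1 controls averaged 63.3 normalised CPM and the duplex 2 controls 37.6, a log2 difference of -0.74 for duplex 2 against duplex 1 (SE 0.135, adjusted p = 0.00807 by edgeR over the 4 control libraries). This call was lost with DESeq2, where 778 of all genes passed, and with a filter of 1 read, where 4 passed. Without these changes 568 genes passed. The mock library, at 37.2, lay within the range of the duplex 2 controls. HNF4A was the 1 gene past the threshold among the 6 of the 10 genes that had enough reads for this comparison, in which 3.29% of 17261 genes passed. Against duplex 1 alone the log2 fold change of NFE2L2 siRNA was -1.38 (adjusted p = 0.0441), and against duplex 2 alone it was -0.62 (adjusted p = 0.280). The 2 repeats of duplex 1 also lay far apart, at 74.6 and 52.0. The part of the control duplex in the difference between the groups was not tested beyond these fits.

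Among 15 hepatic and gastric products linked to HNF4A, 9 had enough reads to be tested, 1 fell, 0 rose and 8 did not pass in edgeR (2.76% of all tested genes passed) and limma-voom (2.61% passed). DESeq2, with which 7.7% of all genes passed, called the same gene and gave 1 of the 9 no adjusted p. Of the 9 genes, 4 had an unadjusted p under 0.05 in edgeR. The share of all tested genes at that cutoff is not given here or for the lists below. Such counts are therefore not a result about a list. The median log2 fold change of the 9 was -0.36 against 0.0082 over all tested genes. The gene that fell was AMBP, which encodes the precursor of alpha-1-microglobulin and bikunin. AMBP had 90, 117 and 112 reads after NFE2L2 siRNA, 483, 403, 362 and 373 after control siRNA and 373 in the mock library. The 3 low libraries lie far from the others, and the log2 fold change was -2.02 (SE 0.147, adjusted p = 6.2e-05). Between the control duplexes the log2 difference of AMBP was -0.24 (adjusted p = 0.199). APOH, which has the highest level of these products per kilobase of annotated exon (6.33, and 5.79 for AMBP) but not of longest transcript (7.19, and 8.10 for AMBP), had 296, 333 and 304 reads after NFE2L2 siRNA and 493, 281, 258 and 216 after control siRNA, a log2 fold change of -0.084 (SE 0.247, adjusted p = 0.870).

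Transferrin (TF), named after its values were seen, was higher with control duplex 1 than with duplex 2, as HNF4A was, and by more. Of the 7 products with enough reads for the control duplex comparison, TF was the 1 that passed, against 3.29% of all genes. Outside the controls TF was unlike HNF4A. It fell from NFE2L2 siRNA duplex 1 to duplex 3 where HNF4A rose, and its mock library lay below every control. TF had 737 and 366 reads with control duplex 1, 165 and 152 with control duplex 2, 215, 99 and 88 with NFE2L2 siRNA and 74 in the mock library. Its difference between control duplexes was -1.77 on the log2 scale (SE 0.269, adjusted p = 0.00339), and that between NFE2L2 siRNA and control siRNA was -1.45 (SE 0.576, adjusted p = 0.153). LGALS4, a gut galectin chosen in the same way, had 89 and 63 reads with control duplex 1, 31 and 35 with duplex 2 and 32, 33 and 42 with NFE2L2 siRNA. For TF and LGALS4 the NFE2L2 siRNA libraries overlapped with the duplex 2 controls in normalised CPM.

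**Figure D2:**
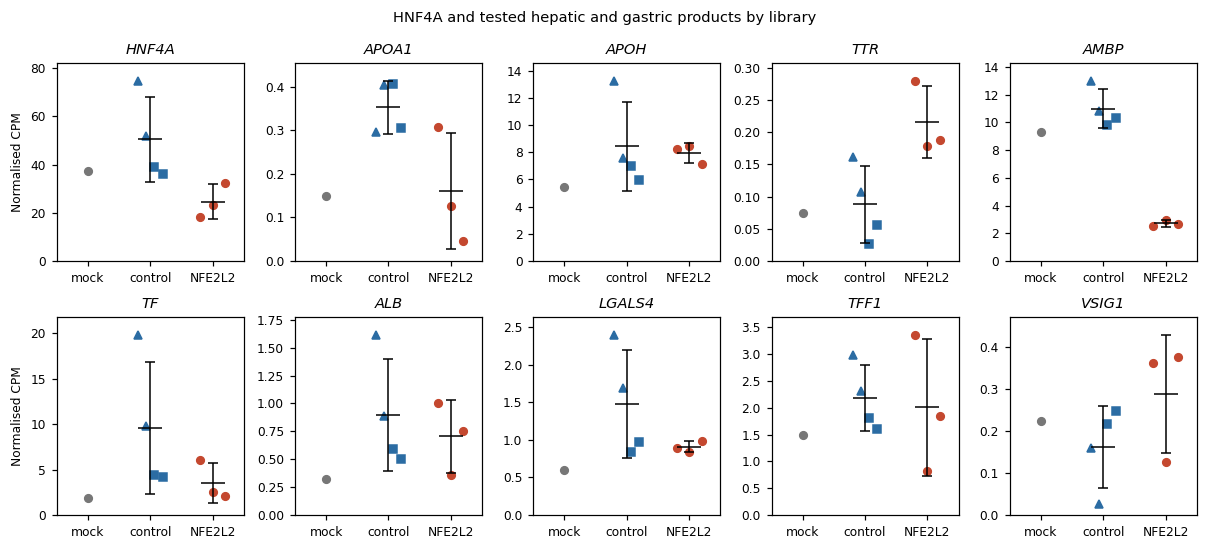
Normalised CPM (vertical axis, from 0) of HNF4A and the 9 tested hepatic and gastric products in mock (grey), control siRNA (blue; triangles duplex 1, squares duplex 2) and NFE2L2 siRNA (red) libraries, with mean ± SD as black bars cut at 0. AMBP is low in all 3 NFE2L2 siRNA libraries, whereas HNF4A, TF and LGALS4 are highest in the 2 duplex 1 controls.

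Of the wider set of 13 hepatic and gut endoderm factors, 12 were found by symbol and 10 were tested, of which 1 rose, 0 fell and 9 did not pass in edgeR, against 2.76% of all tested genes. The median log2 fold change was 0.044, and 2 had an unadjusted p under 0.05. DESeq2 called 2, both higher, NR5A2 and FOXA3, against 7.7% of all genes, and gave 1 of the 10 no adjusted p. FOXA3, the third forkhead factor of this family and named for this count, had 164, 217 and 277 reads after NFE2L2 siRNA, 153, 120, 93 and 96 after control siRNA and 129 in the mock library, a log2 fold change of 0.83 (SE 0.199) whose adjusted p was 0.0341 in edgeR. NR5A2, a nuclear receptor of liver and pancreas, rose, with 694 to 798 reads after control siRNA and 1144, 1154 and 1678 with NFE2L2 siRNA, a log2 fold change of 0.77 (SE 0.121, adjusted p = 0.00523). It passed in 9 of 17 refits and in 2 of the 7 that left out a library, where the adjusted p reached 0.0281. The bile acid receptor gene NR1H4 had 476, 462 and 563 reads after NFE2L2 siRNA and 530, 341, 272 and 266 after control siRNA, and its log2 fold change was 0.42 (SE 0.219, adjusted p = 0.267). Its difference between the control duplexes was -0.66 on the log2 scale and did not pass (adjusted p = 0.0393). HNF4A-AS1 had 1 read in 1 control library and 0 elsewhere.

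For the classical surfactant proteins the libraries held almost no reads. SFTPB (ENSG00000168878.12, chromosome 2 from 85884437 to 85895864, minus strand) had 1 read, with NFE2L2 siRNA duplex 2, and 0 reads in the other 7 libraries. SFTPC (ENSG00000168484.8, chromosome 8 from 22014426 to 22021992, plus strand) had 2, 5 and 4 reads after NFE2L2 siRNA, 6, 2, 0 and 1 after control siRNA and 4 in the mock library. Over all libraries SFTPC came to 0.0787 CPM, with an exact Poisson interval of 0.0504 to 0.117. The groups overlapped for both genes, and neither entered the main test.

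SFTPD (ENSG00000133661.11, chromosome 10 from 81697223 to 81742370, minus strand) was just above the limit. It had 9, 7 and 14 reads after NFE2L2 siRNA, 7, 6, 8 and 6 after control siRNA and 17 in the mock library. It entered the test only through NFE2L2 siRNA library 3, the single library of the 7 with at least 10 reads. The groups overlapped, and the log2 fold change of 0.47 (SE 0.354, 95% interval -0.32 to 1.26) had an adjusted p of 0.451. SFTPA1, SFTPA2, SFTA2, SFTA3 and PGC, which are other products of type II cells, had at most 2 reads in any library. Of the same list, LAMP3, a lysosome and lamellar body protein, had 22 to 40 reads and MUC1, a mucin of the apical surface, 17 to 54 reads over the 8 libraries, and 9 of its 17 identifiers stayed under 10 reads in every library. SFTPA1 and SFTPA2 are near-identical copies, and reads that align equally well to several places were not counted, so that their values are uncertain.

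NAPSA (ENSG00000131400.3, chromosome 19 from 50861729 to 50869087, minus strand) was present at a low level. It stood at 3.58, 2.34 and 2.73 normalised CPM with NFE2L2 siRNA, 2.61, 2.56, 1.95 and 2.46 after control siRNA and 2.23 in the mock library. The groups overlapped, and the log2 fold change was 0.27 (SE 0.190, 95% interval -0.16 to 0.69, adjusted p = 0.422). Its neighbour and paralogue NAPSB had 1 read in each of 2 libraries, and reads that align equally well to both were not counted, so that the NAPSA level is uncertain. Its substrate gene SFTPB had 1 read in the same libraries.

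ABCA3 was the 1 gene of the 10 that passed the threshold in edgeR, where 2.76% of all tested genes passed, and it rose. ABCA3 (ENSG00000167972.9) is a minus-strand gene of chromosome 16 from 2325882 to 2390747. It had 2034, 2380 and 2834 reads after NFE2L2 siRNA and 1414, 1411, 1522 and 1390 after control siRNA, and 1682 in the mock library. In normalised CPM this was 56.9, 60.6 and 66.6 against 38.0, 38.0, 41.1 and 38.5, with 42.1 in the mock library. Every NFE2L2 siRNA library lay above every control library and above the mock library, and the lowest of the 3 was well clear of the highest of the others. The mean was 61.3 ± 4.92 normalised CPM (SD, n = 3) against 38.9 ± 1.51 (SD, n = 4), a 1.58-fold increase. The log2 fold change was 0.66 (SE 0.0912, 95% interval 0.45 to 0.86, adjusted p = 0.00274 by edgeR), and DESeq2 gave 0.65 with an adjusted p of 2.75e-08. The exact permutation p was 0.0571, the smallest it can be. Any gene without overlap between the groups gets this value, which was 23.3% of all tested genes.

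The ABCA3 increase kept its size under refits, but not always its call. When single libraries were dropped, its log2 fold change was between 0.60 and 0.71 and the adjusted p between 0.00233 and 0.0172, under 0.01 in 2 of the 7 fits. It was over 0.01 without any one of the control libraries or without NFE2L2 siRNA replicate 3. Against control duplex 1 alone the log2 fold change was 0.68 (adjusted p = 0.0442) and against duplex 2 alone 0.62 (adjusted p = 0.0667). With the repeats of each control duplex summed it was 0.66 (adjusted p = 0.0769 by edgeR). The control duplexes differed by 0.075 on the log2 scale (SE 0.0664, 95% interval -0.073 to 0.22, adjusted p = 0.521).

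The promoter of ABCA3 is printed because it belongs to the gene that passed the test. It covers chr16:2340679-2340978 in GRCh38.p14 on the minus strand, from 250 bases before to 50 bases after the RefSeq start, and is 78.0% G and C. Capitals mark the 1 match to TGACNNNGC, the core of the antioxidant response element that NRF2 and small MAF proteins bind, which begins at -197 from the start.
ABCA3: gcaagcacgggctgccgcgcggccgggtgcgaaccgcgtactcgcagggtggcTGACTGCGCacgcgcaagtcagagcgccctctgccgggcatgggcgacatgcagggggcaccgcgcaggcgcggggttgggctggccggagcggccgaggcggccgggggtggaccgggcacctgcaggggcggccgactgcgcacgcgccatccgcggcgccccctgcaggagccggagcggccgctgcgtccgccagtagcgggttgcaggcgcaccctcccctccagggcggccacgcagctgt
The same letters, on either strand, were found in 13.3% of all RefSeq promoter windows, and among the 12 windows of these genes also in 1 of SFTPB. The windows of HNF4A, SFTPD and LPCAT1 held no match to any of these 3 motifs. The letters AAAGTCC, part of the HNF4 motif, were in 0 of the 12 windows and in 3.71% of all windows. Binding was not measured in these libraries.

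LPCAT1 (ENSG00000153395.5, chromosome 5 from 1456595 to 1524077, minus strand) was the most abundant of the 10 genes, and did not pass. It stood at 209, 149 and 196 normalised CPM with NFE2L2 siRNA, 186, 155, 161 and 164 after control siRNA and 144 in the mock library. NFE2L2 siRNA duplexes 1 and 3 lay above all controls and duplex 2 below them, so that the groups overlapped. The log2 fold change was 0.15 (SE 0.125, 95% interval -0.13 to 0.43, adjusted p = 0.504). Its paralogue LPCAT2 had a log2 fold change of 0.27 (SE 0.141, adjusted p = 0.264).

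Over the 10 genes, then, 7 reached 10 reads in 1 or more of the 7 compared libraries, and 1 of these passed the threshold, as a higher gene. Across all 17811 tested genes 2.76% passed, 1.39% as higher and 1.36% as lower. With so few genes, 1 of 7 is not a result about the set. The NFE2L2 siRNA and control siRNA libraries did not overlap for ABCA3 and HNF4A, 2 of the 7, against 23.3% of all tested genes. The median log2 fold change of the 7 was 0.15, beside 0.0082 for all tested genes.

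**Figure D3:**
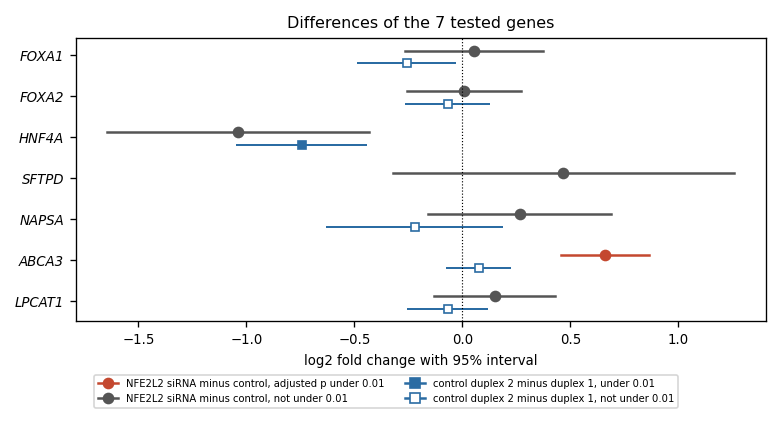
Log2 fold change (horizontal axis) with 95% interval for the 7 tested genes, for NFE2L2 siRNA minus control siRNA (circles, red where the adjusted p is under 0.01) and for control duplex 2 minus duplex 1 (blue squares, filled where under 0.01; SFTPD had too few reads). ABCA3 at 0.66 is the red point, and HNF4A lies at -1.04 between the groups and at -0.74 between the control duplexes.

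Levels were also compared between genes, as normalised CPM per kilobase of annotated exon. In the control siRNA libraries this was 25.7 ± 2.11 (SD, n = 4) for LPCAT1, 7.95 ± 0.529 for FOXA2, 4.98 ± 0.194 for ABCA3, 4.96 ± 1.72 for HNF4A, 2.82 ± 0.358 for FOXA1, 0.667 ± 0.0847 for NAPSA and 0.0432 ± 0.00590 for SFTPD. ABCA3 and HNF4A, neighbours in this order, overlapped between libraries, while the other neighbours did not. The place of HNF4A depends on the length used, because its annotated exons add up to 10167 bases but its longest transcript has 4739. Per kilobase of longest transcript its control mean was 10.6, and its libraries overlapped with those of FOXA2 at 8.52. Among the 17304 tested genes with a length, LPCAT1 stood at percentile 90.7 of level per length in the control libraries, FOXA2 at 70.8, FOXA1 at 49.2 and SFTPD at 3.11.

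Genes of the same pathways were given beside these from lists of other lung and endodermal genes. Of 16 further surfactant and type II cell genes, 8 were tested, of which 1 rose, 0 fell and 7 did not pass in edgeR, against 2.76% of all tested genes, with a median log2 fold change of 0.18 and 4 at an unadjusted p under 0.05. DESeq2 called 3 of them, 1 higher (CTSH) and 2 lower (PCYT1A and CHPT1), against 7.7% of all genes. The gene that rose was CTSH, the lysosomal protease cathepsin H, which also takes part in the maturation of pro-SP-B. CTSH had 801, 950 and 1003 reads after NFE2L2 siRNA, 490 to 557 after control siRNA and 599 in the mock library. Its log2 fold change was 0.68 (SE 0.101, adjusted p = 0.00395). It passed in 9 of 17 refits and in 2 of the 7 that left out a library, where its adjusted p reached 0.0205. CKAP4, which encodes a surfactant protein A receptor and has the highest level per length of this list, had a log2 fold change of 0.041 (SE 0.0805, adjusted p = 0.794). CHPT1, a phosphatidylcholine synthesis enzyme, had 1789, 2188 and 2131 reads after NFE2L2 siRNA and 2769, 2848, 2323 and 2285 after control siRNA. Its log2 fold change was -0.42 (SE 0.106, adjusted p = 0.0408). PCYT1A, the enzyme that sets the rate of phosphatidylcholine synthesis and was named after its values were seen, likewise stood lower in each NFE2L2 siRNA library, with a log2 fold change of -0.42 and an adjusted p of 0.0163, which missed the threshold in edgeR.

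Of 16 other transcription factors of the lung epithelium, 14 were tested. In edgeR 1 rose, 0 fell and 13 did not pass, against 2.76% of all tested genes. Their median log2 fold change was 0.34. An unadjusted p under 0.05 was found for 7, and the share of all tested genes at that cutoff is not given here. That cutoff is loose, as ELF3, named for its p-values, had an unadjusted p of 0.0327 and an adjusted p of 0.157 in edgeR. DESeq2 called 4, all higher (CEBPD, SOX2, FOXP1 and NFIB, named for this count), against 7.7% of all genes. CEBPD, a stress-responsive C/EBP factor, had 2371, 3407 and 3972 reads after NFE2L2 siRNA, 1459 to 1994 after control siRNA and 1195 in the mock library. The log2 fold change of CEBPD was 0.87 (SE 0.142, adjusted p = 0.00629), and it passed in 9 of 17 refits and in 2 of the 7 that left out a library, with an adjusted p of up to 0.0285 in these. TEAD1, the DNA-binding partner of YAP, had a log2 fold change of 0.10 (SE 0.0911, adjusted p = 0.518). GRHL2, an epithelial factor, had at most 1 read in any library.

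Markers of other lung cell types did not pass in edgeR, where 2.76% of all tested genes passed. The shares of all genes were 2.61% with limma-voom and 7.7% with DESeq2. With so few genes tested per list, 0 calls is not a result about these cell types. Of 10 type I cell markers, 6 were tested and 0 passed in edgeR, limma-voom or DESeq2, with 1 at an unadjusted p under 0.05 and a median of -0.0038. CAV1 and GPRC5A, the most abundant of them per kilobase of annotated exon, had log2 fold changes of 0.32 (SE 0.104, adjusted p = 0.0904) and 0.18 (SE 0.0995, adjusted p = 0.289). Of 8 airway markers, 4 were tested and 0 passed by any of the 3 tools or at an unadjusted p under 0.05, with a median of 0.51. TPPP3, a ciliated cell gene, had 525, 333 and 2103 reads after NFE2L2 siRNA against 402 to 495 after control siRNA, so that library 3 alone was high. TP63, a basal cell factor, had a log2 fold change of 0.41 (SE 0.296, adjusted p = 0.424). COL3A1, the 1 tested marker of other tissues, had 74, 104 and 149 reads after NFE2L2 siRNA and 35 to 65 after control siRNA, a log2 fold change of 1.00 (SE 0.244, adjusted p = 0.0359). DESeq2 called this gene.

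Of 6 epithelial markers, 6 were tested and 0 passed in edgeR (2.76% of all tested genes passed) or limma-voom (2.61% passed). An unadjusted p under 0.05 was found for 3, and the median log2 fold change was 0.50. DESeq2 called 2 (CDH1 and KRT19, named for this count), against 7.7% of all genes. CDH1, which encodes E-cadherin and was named after its values were seen, had 7189 and 5406 reads with control duplex 1, 4139 and 3627 with duplex 2 and 4165 in the mock library, the order seen for HNF4A. With NFE2L2 siRNA it had 8476, 8747 and 9868 reads, above every control, whereas HNF4A lay below every control. The control duplexes differed by -0.67 for CDH1 on the log2 scale (SE 0.113, adjusted p = 0.00585), and NFE2L2 siRNA against control siRNA by 0.74 (SE 0.194, adjusted p = 0.0455). Its part in the values of the lineage genes was not tested. The last list, of neighbouring RNA genes and paralogues, had 3 tested of 6 and a median of 0.33. Of these 3, 0 were called by edgeR, limma-voom or DESeq2, or had an unadjusted p under 0.05 in edgeR. Beside the 2.76%, 2.61% and 7.7% of all genes that passed with these tools, that is not a result about the list.

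**Figure D4:**
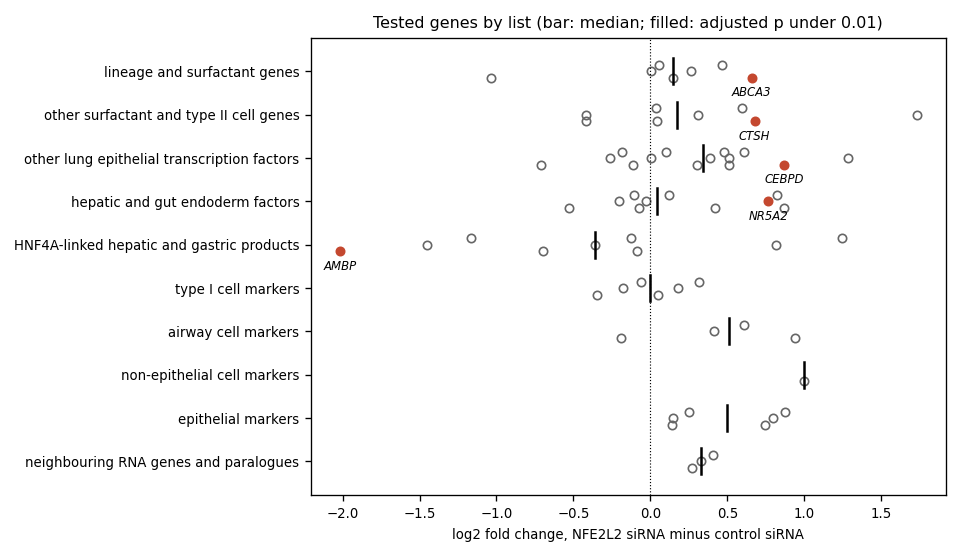
Log2 fold change (horizontal axis, NFE2L2 siRNA minus control siRNA) of each tested gene in 10 lists, with the list median as a black bar. Filled red points are genes with an adjusted p under 0.01, which are ABCA3, CTSH, CEBPD, NR5A2 and AMBP, and open circles are genes that did not pass.

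The genes most like the expressed factors across the 8 libraries were found by Pearson correlation of log2(normalised CPM + 0.5) among 13341 other genes with a mean of at least 50 reads, as a description over 8 libraries of 1 cell line at similar depth. For HNF4A these were ZFP36 (r = 0.990), PIGK (r = 0.983) and SPIN2B (r = 0.981). ZFP36, which encodes an mRNA decay factor, had 754, 878 and 1196 reads after NFE2L2 siRNA, 1558, 1299, 1147 and 1003 after control siRNA and 1127 in the mock library. For FOXA1 they were RAB40C (r = 0.986), TECPR2 (r = 0.981) and SLC8B1 (r = 0.954), and for FOXA2 GCH1 (r = 0.965), TNK2 (r = 0.960) and RGMB (r = 0.917).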

How the data were processed

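Strand-specific total RNA sequencing of 8 A549 libraries was analysed. The authors aligned reads to hg19 with HISAT 0.1.6 and counted them per gene of GENCODE v19 with HTSeq 0.6.0 in reverse-stranded mode, per the labels and the methods of the study; the deposited values are raw counts. Classes of unassigned reads, 34.4% to 39.7% of entries, were left out. Symbols, positions and exon lengths came from GENCODE v44 on GRCh37, in which 55538 of 60291 identifiers were found; it is a later release than the one used for counting. Promoters came from RefSeq (GRCh38.p14).

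The quasi-likelihood test of edgeR 4.0.16 (R 4.3.3, TMM scaling, default prior count) was run on every gene that reached 10 reads in any compared library. Adjusted p-values are Benjamini-Hochberg values across the whole table, called under 0.01. The mock library entered no test except as an alternative control. The SE of a fold change was taken from its F statistic. Single genes were compared by an exact permutation test on log2(normalised CPM + 0.5). TMM factors were 0.956 to 1.02. Each transfection gave 1 library. The 4 controls were fitted as separate libraries, although repeats of a control duplex share its sequence. The p-values therefore mix the spread between duplexes with the spread between repeats of a duplex. Alternatives were DESeq2 1.42.0, limma-voom (limma 3.58.1), other scalings and filters, other control groups, and each library left out. The genes and lists were chosen with earlier results of these data known. Named genes were, by rule, the 10 genes, NFE2L2, list genes past the threshold, the 2 most abundant per length of each list and the 3 most alike; others are marked, or named as near 0, as neighbours or as markers. PECAM1 was not found by symbol, and some list genes are not reported here.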

Additional observations from a re-analysis of the deposited data

Results flagged for a closer look

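ABCA3 in control siRNA library 3 (duplex 2) lay above the other controls at 41.1 normalised CPM, with a gap to the nearest of 0.830 of the range of the 4 libraries, just over Dixon's 95% critical value. Chance gives such a gap in about 1 of 20 groups, and the value is below every NFE2L2 siRNA library.

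In the mock library, which enters no comparison, ABCA3 stood at 42.1 normalised CPM, above every control siRNA library and below every NFE2L2 siRNA library. SFTPD stood at 0.425 normalised CPM in the mock library, from 17 reads, above every control siRNA library (6 to 8 reads) and every NFE2L2 siRNA library (7 to 14 reads). The exact Poisson interval of this single library, 0.251 to 0.689 CPM, overlaps that of the 3 NFE2L2 siRNA libraries together, 0.174 to 0.368. The interval of the 4 control siRNA libraries together, 0.119 to 0.263, overlaps that of the mock library only at its edge.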

How the results depend on the processing

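No paired analysis was possible because a number names a duplex among the NFE2L2 siRNA samples but a repeat of a duplex among the controls. Where a value changed, the cause was not tested. The number of genes past the threshold was 491 with edgeR, and of the 10 genes 1. With DESeq2 they were 1319 and 2, with a filter of 1 read 1019 and 2, at a threshold of 0.05 1456 and 2, with control duplex 1 alone 120 and 0, with duplex 2 alone 59 and 0, with repeats of a control duplex summed 78 and 0, and with the mock library added to the controls 772 and 1. With each library left out in turn they ranged from 163 to 915 and from 0 to 1. The second gene, where there were 2, was HNF4A. Between the control duplexes 568 genes and 1 of the 10 passed. A filter of 1 read gave 4 and 0, a threshold of 0.05 gave 1736 and 1, and DESeq2 gave 778 and 0. ABCA3 passed in 9 of its 17 refits, with an adjusted p from 2.75e-08 to 0.0769, and kept its direction in all. HNF4A passed in 2 of 17, with an adjusted p from 0.0018 to 0.280 and log2 fold changes from -1.38 to -0.62. FOXA1 turned to -0.0084 without control siRNA replicate 4, -0.097 without NFE2L2 siRNA replicate 2 and -0.082 with control duplex 1 alone, and ranged up to 0.14 with 1 library left out. FOXA2 turned to -3.5e-05 with limma-voom, -0.0025 with a filter of 1 read, -0.011, -0.035 and -0.13 without control siRNA replicates 2 and 3 and NFE2L2 siRNA replicate 2, and -0.040 with control duplex 1 alone, and ranged up to 0.080 with 1 library left out. SFTPD had too few reads under filterByExpr and in the fit without NFE2L2 siRNA replicate 3 and has no value there. With a limit of 3 reads in place of 10, 1 gene (SFTPB) counted as not expressed in place of 3. Genes under 10 reads in every compared library did not enter the main test. Their values in the fit with a filter of 1 read are not reported here.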

Other observations

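AMBP passed in 17 of 17 refits, with log2 fold changes from -2.14 to -1.89.

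SOX2, a factor of the airway lineage, named after its values were seen, had 120, 292 and 172 reads with NFE2L2 siRNA, 82, 61, 72 and 84 with control siRNA and 90 in the mock library. Its log2 fold change was 1.28 (standard error 0.268), with an adjusted p of 0.0186 that missed the threshold in edgeR. DESeq2 called it.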
